A study of Mus musculus with 2 samples.

Results

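The 9 genes described here, Foxf1, Gata2, Nr2f2, Tbx2, Tbx3, Meox1, Meox2, Bcl6b and Tal1, encode transcription factors that differ between types of endothelial cell (EC) or that act throughout the endothelium. They were chosen by name from the 31053 genes measured, and all 9 were found. Lung ECs came from wild-type C57BL/6 mice, sorted for PECAM1 at 6 h after a tail vein injection of PBS (control) or of 200000 B16-F10 cells per mouse (metastatic). B16-F10 is a mouse skin melanoma line, and the cells given had been labeled with a green dye. Each library pooled 2 mice, so each group had 1 library and no comparison between control and metastatic could be tested. Every interval in parentheses is a 95% interval for the counting of RNA molecules (unique molecular identifiers, UMIs) alone, and it covers neither the variation between mice nor that between libraries.

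Barcodes were called as cells when 1000 to 5000 genes were detected and mitochondrial genes took less than 20% of their UMIs, which left 7134 control and 6466 metastatic cells. Cells were assigned to 4 classes by their markers. Aerocytes, the large capillary cells that line the gas exchange surface, needed 2 or more of Ednrb, Fibin and Apln. Veins needed 2 or more of Slc6a2, Car8 and Bst1, and arteries 2 or more of Gja5, Bmx and Fbln5. General capillary cells (gCap) needed 2 or more of Gpihbp1, Aplnr, Kit and Lpl and met none of the other rules. The control library held 5135 gCap, 1228 aerocyte, 252 vein and 63 artery cells, and the metastatic library held 4633, 955, 308 and 62. The 41 control and 25 metastatic barcodes that met several of these rules were left out. At least 3 of the 5 endothelial markers Pecam1, Cdh5, Cldn5, Tie1 and Egfl7 were detected in 5087 of 5135 control and 4584 of 4633 metastatic gCap cells, and in between 299 of 308 and all 63 cells of the smaller classes. The artery class was small and mixed: in the metastatic library it included 2 cells with lymphatic markers and in each library 3 cells with fibroblast markers.

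A level is the number of UMIs of a gene per 1000000 UMIs of its class (CPM), after pooling all cells that the class holds in a library. Median depth was 5961 UMIs per cell in control gCap and 6295 in metastatic gCap, and lay between 7276 and 8460.5 in the other classes. The 43 control and 45 metastatic barcodes that resembled T, NK or B cells served as a low reference, as a population that should largely lack these factors. Their rule required no UMI of Cdh5 or Cldn5, which by construction leaves out barcodes that took up much endothelial RNA, so they do not measure free RNA. In them each of the 9 genes had between 0 and 4 UMIs, at most 16.7 CPM. Taking 3 counts as the limit of a count of 0, here and below, a gene with 0 UMIs there could still reach 14.1 CPM in control and 12.5 CPM in metastatic. Barcodes with 11 to 50 UMIs, which were taken to hold mostly free RNA, had higher levels: 45.7 and 46.7 CPM for Nr2f2, 36.6 and 41.2 CPM for Tbx2 and 9.1 and 13.7 CPM for Meox1 in control and metastatic, each above its level in gCap. The Meox1 values rested on 6 and 10 UMIs, with intervals (3.4 to 19.9 and 6.6 to 25.2 CPM) that covered the gCap levels. The share of free RNA in gCap cells was not settled, so the low gCap levels of these factors were not told apart from free RNA. The libraries shared 16 of these called barcodes, where 6.79 would be shared if the lists were unrelated.

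Endothelial identity is set by layers of transcription factors. GATA2 and TAL1 are DNA-binding proteins of blood and endothelial precursors that can sit in 1 complex, bridged by LMO2 and LDB1. FOXF1 is a forkhead factor needed for the lung microvasculature, and its deletion or mutation in people causes alveolar capillary dysplasia with misaligned pulmonary veins. NR2F2, also called COUP-TFII, is a nuclear receptor known for keeping veins venous and, with PROX1, for lymphatic fate. TBX2 and TBX3 are closely related T-box factors that mostly repress transcription, MEOX1 and MEOX2 are homeobox factors best known from somites, MEOX2 also from the vessels of heart and skeletal muscle, and BCL6B is a zinc finger repressor related to BCL6.

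In the GENCODE M21 annotation of mouse build GRCm38, which shares its chromosome coordinates with mm10, all 9 are protein-coding genes. Foxf1 lies at chr8:121084386-121088144, Gata2 at chr6:88193891-88207032, Nr2f2 at chr7:70351944-70366735, Tbx2 at chr11:85832551-85841948 and Tbx3 at chr5:119670669-119684724. Meox1 lies at chr11:101877510-101894374, Meox2 at chr12:37108540-37179534, Bcl6b at chr11:70224128-70229798 and Tal1 at chr4:115056426-115071755. Nr2f2, Meox1 and Bcl6b are on the minus strand and the others on the plus strand.

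The 250 bases before the RefSeq start (build GRCm38.p6) of Nr2f2 (chr7:70366747-70366996, minus strand), Gata2 (chr6:88193641-88193890, plus strand) and Tal1 (chr4:115056176-115056425, plus strand) are shown 5′ to 3′. Nr2f2 is shown as the factor with the largest difference between vein and gCap. Gata2 and Tal1 are shown as 2 factors of 1 complex whose ratios between the libraries had opposite signs in gCap and aerocytes. The Tal1 ratio in aerocytes fell to 0.075 once cells were thinned to 2000 UMIs, and with 1 library per group this contrast was not tested. For Gata2 and Tal1, which have 2 starts each, the first is shown. Promoter sequences matched Gata2, Nr2f2, Meox2 and Tal1. Capitals mark matches to the GATA motif (AGATAA or TGATAA), the E-box CAGNTG bound by TAL1 with its partners, and the ETS motif CNGGAAG, each searched on both strands.
Nr2f2: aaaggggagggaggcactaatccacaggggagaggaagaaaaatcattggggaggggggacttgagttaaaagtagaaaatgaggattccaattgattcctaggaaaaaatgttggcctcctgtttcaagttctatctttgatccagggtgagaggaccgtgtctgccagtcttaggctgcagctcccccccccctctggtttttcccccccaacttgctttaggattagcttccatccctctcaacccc
Gata2: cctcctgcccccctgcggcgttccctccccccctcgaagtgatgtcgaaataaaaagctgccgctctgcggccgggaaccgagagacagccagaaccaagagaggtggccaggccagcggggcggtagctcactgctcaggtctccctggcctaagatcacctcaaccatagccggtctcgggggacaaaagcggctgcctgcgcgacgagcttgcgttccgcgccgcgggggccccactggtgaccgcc
Tal1: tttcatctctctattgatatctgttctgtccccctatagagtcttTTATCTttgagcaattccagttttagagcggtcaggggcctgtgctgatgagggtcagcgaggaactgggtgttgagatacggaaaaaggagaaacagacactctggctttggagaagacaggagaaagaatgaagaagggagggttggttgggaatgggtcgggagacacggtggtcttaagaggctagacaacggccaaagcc

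Of these 3 windows, only that of Tal1 held any of these motifs, 1 GATA match on the opposite strand whose first base lay 205 bases before the start. The windows before the second start held no GATA match for either gene, none of the 3 motifs for Gata2 (chr6:88198414-88198663) and 1 ETS match for Tal1 (chr4:115057561-115057810). For comparison, 16.6% of the 32851 promoters in the same table held a GATA match in the same 250 bases, 44.8% an E-box and 26.6% an ETS match. The GC content was 50.0% for Nr2f2, 67.2% for Gata2 and 48.8% for Tal1. These matches describe letters in a short window and say nothing on binding.

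To compare the factors between classes, each class was set against the gCap cells of the same library. A factor counted as different where it was at least 2-fold higher or lower in both libraries, among genes with at least 100 UMIs in each. Of the 8 factors that reached this count (Meox2 did not), Tbx2, Meox1 and Tbx3 were higher in aerocytes, against 3.6% of the 10482 genes tested, and none was lower, against 5.15%. In veins Nr2f2 was higher (1 of 8, background 2.74%) and Tbx2 and Meox1 were lower (2 of 8, background 2.69%). In arteries Nr2f2 was higher (1 of 8, background 2.39%) and none was lower, against 3.77%. The factors were named for this project because they differ between EC types, so these counts describe them and are no independent evidence.

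**Figure D1:**
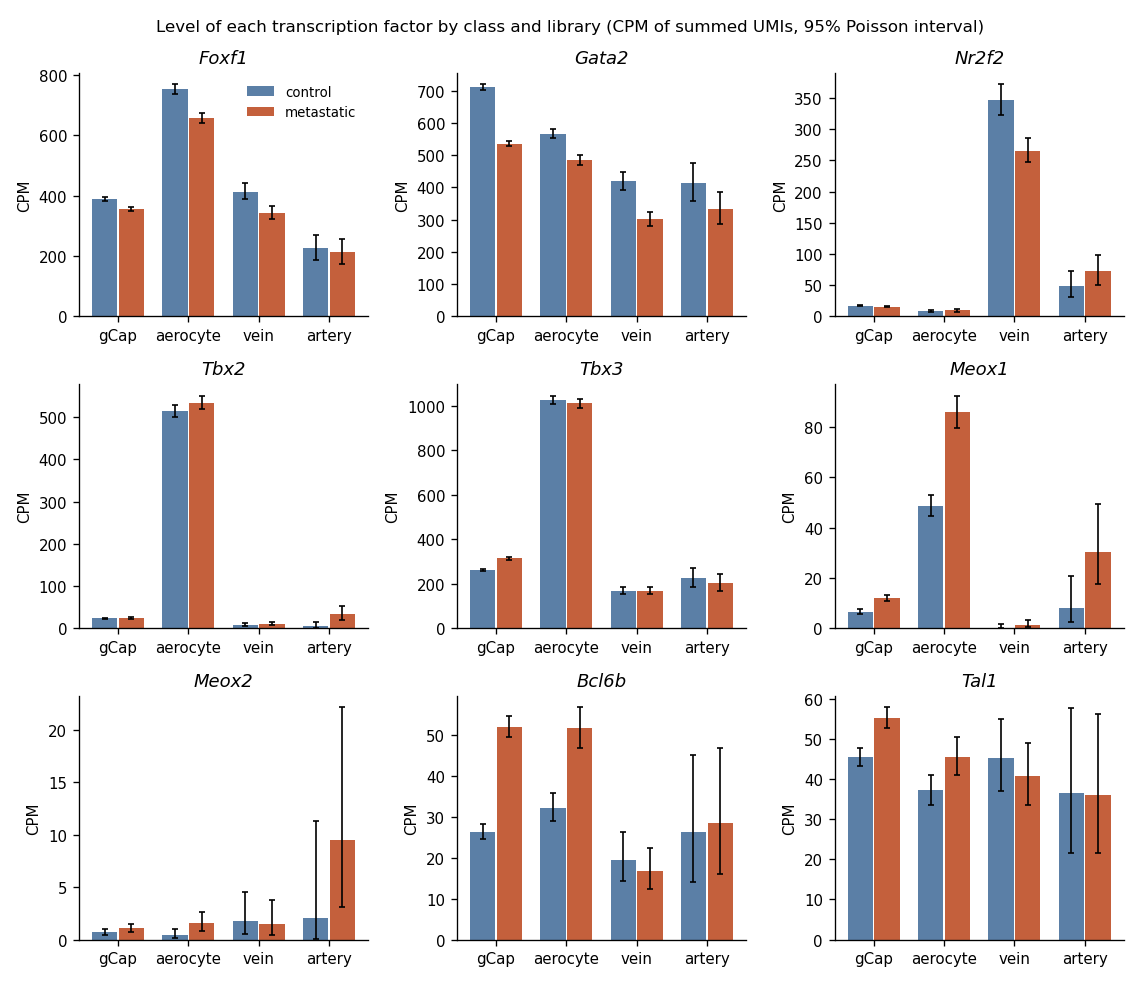
Level of each factor in CPM (linear axis from 0, a different scale for each gene) in general capillary (gCap), aerocyte, vein and artery cells of the control library (blue) and the metastatic library (orange), with 95% Poisson intervals. Tbx2 and Tbx3 stand out in aerocytes and Nr2f2 in veins in both libraries, and Bcl6b is higher in the metastatic library in gCap and aerocytes.

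Tbx2 had the largest excess in aerocytes over gCap of the 8 factors compared, in both libraries. It stood at 515 CPM (501 to 529) in control and 535 CPM (519 to 551) in metastatic aerocytes, against 23.0 and 23.5 CPM in gCap, 8.0 and 9.5 CPM in veins and 4.1 and 32.2 CPM in arteries. The aerocyte level exceeded the gCap level by 4.49 (4.38 to 4.60) on the log2 scale in the control and by 4.51 (4.39 to 4.62) in the metastatic library. After each cell was thinned to 2000 UMIs, a Tbx2 UMI remained in 57.3% of control and 56.1% of metastatic aerocytes and in 4.01% and 4.39% of gCap cells. Before thinning these shares were 81.4%, 82.0%, 11.7% and 11.8%. Of the lymphocyte-like cells, 1 of 43 and 1 of 44 had a Tbx2 UMI after thinning, at median depths of 4689 and 4770 UMIs, and the interval of their level (0.1 to 26.1 and 0.1 to 23.3 CPM) covered both vein levels and the control gCap level. The share of gCap cells with a Tbx2 UMI was not told apart from free RNA. In the metastatic arteries 8 of the 17 Tbx2 UMIs came from 1 cell.

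Tbx3, the close relative of Tbx2, was detected in every class and was highest in aerocytes. Its level was 1026 CPM (1007 to 1046) in control and 1012 CPM (991 to 1034) in metastatic aerocytes. Elsewhere it lay at 261 and 314 CPM in gCap, 168 and 168 CPM in veins and 223 and 203 CPM in arteries. Aerocytes thus exceeded gCap by 1.98 (1.93 to 2.02) in control and 1.69 (1.65 to 1.73) in metastatic, on the log2 scale. Veins differed from gCap by -0.64 in control and -0.90 in metastatic, and veins differed from arteries by -0.41 (-0.72 to -0.09) in control and -0.27 (-0.58 to 0.05) in metastatic. Tbx2 and Tbx3 followed each other over the 8 class and library values (Pearson r = 0.94 on log2(CPM + 1), values that share 2 libraries), but unlike Tbx2, Tbx3 in gCap and veins lay above the upper limit in the lymphocyte-like cells of both libraries (33.9 and 30.2 CPM).

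Meox1 had few UMIs and was highest in aerocytes among blood endothelial cells. It reached 48.7 CPM (44.5 to 53.1) in control and 86.0 CPM (79.9 to 92.6) in metastatic aerocytes, against 6.5 and 11.9 CPM in gCap. The gCap levels were below what the 0 UMIs of the lymphocyte-like cells allow, but above the vein levels of the same libraries. In veins no Meox1 UMI was found among 2248155 control UMIs, and 3 UMIs (1.1 CPM, 0.2 to 3.2) were found in the metastatic library. Set against that limit of 3 counts, Meox1 in control veins was at least 4.86-fold lower than in gCap and at least 36.5-fold lower than in aerocytes. The counting interval of the ratio itself, which also carries the error of the other class, ended nearer to 0, at -1.97 on the log2 scale for veins against gCap and at 4.89 for aerocytes against veins. The 6 control and 14 metastatic lymphatic-like cells held 9 and 18 Meox1 UMIs (277 and 237 CPM). Arteries differed from gCap by 0.32 (-1.57 to 1.70) in control and 1.35 (0.53 to 2.07) in metastatic on the log2 scale, from 4 and 16 Meox1 UMIs. In metastatic arteries, 6 of the 16 UMIs were in the 2 cells with lymphatic markers. Without cells that carried 2 or more markers of another cell type, the metastatic ratio was 0.82. Its homolog Meox2 had 32 control and 56 metastatic UMIs over all 4 classes and stayed at or below 1.8 CPM in gCap, aerocytes and veins, a depth at which no class difference could be read.

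Foxf1 was highest in aerocytes and lowest in arteries in both libraries. It was 753 CPM (736 to 770) in control and 657 CPM (640 to 675) in metastatic aerocytes. In gCap it was 390.4 and 354.7 CPM, in veins 414 and 343 CPM and in arteries 225 and 212 CPM. Aerocytes exceeded gCap by 0.95 and 0.89 on the log2 scale, just under the 2-fold limit in both libraries. Veins and gCap lay within 0.08 of each other in the control and 0.05 in the metastatic library, with intervals that included 0. In the lymphatic-like cells no Foxf1 UMI was found in either library, which allows up to 92.3 and 39.6 CPM.

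Nr2f2 separated veins from the capillaries. It stood at 347 CPM (323 to 372) in control and 266 CPM (247 to 286) in metastatic veins, against 17.3 and 15.7 CPM in gCap and 8.5 and 9.7 CPM in aerocytes. The vein level exceeded the gCap level by 4.33 (4.17 to 4.49) in control and 4.08 (3.91 to 4.25) in metastatic on the log2 scale. With cells thinned to 2000 UMIs, 39.8% of control and 36.5% of metastatic vein cells had an Nr2f2 UMI, against 2.77% and 2.34% of gCap cells (unthinned 77.8% and 71.8% against 7.07% and 6.80%). Lymphocyte-like cells had 0 UMIs in control and 2 in metastatic (8.4 CPM, 1.0 to 30.2), so their limits (14.1 and 30.2 CPM) covered the aerocyte levels in both libraries and the gCap level in metastatic. Markers of mural cells, which wrap veins, were also carried by the vein class, at 130 and 142 CPM over the 4 genes Pdgfrb, Cspg4, Rgs5 and Acta2 (15.2 and 13.8 CPM in gCap). Of these 1 was at 0 in control veins and none in metastatic veins, the most widely detected was seen in 35.7% and 39.9% of vein cells, and their part in the result was not tested. Vein cells of the metastatic library also carried more RNA of the 3 red cell markers (326 and 1017 CPM), of the 7 genes abundant in free RNA (459 and 4891 CPM) and of 4 myeloid markers (6.2 and 62.7 CPM), and their part in the vein ratios was not tested.

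Lymphatic-like cells, chosen by 2 or more of Prox1, Mmrn1, Ccl21a and Reln, had the highest Nr2f2 level. The 6 control cells reached 1107 CPM (776 to 1533) and the 14 metastatic cells 1938 CPM (1638 to 2278), and all 20 had at least 1 Nr2f2 UMI. In arteries, Nr2f2 rested on 5 of 63 control cells (24 UMIs) and 7 of 62 metastatic cells (38 UMIs). The 3 fibroblast-marked cells held 13 of the 24 control and 21 of the 38 metastatic UMIs, and the 2 metastatic cells with lymphatic markers held 15, where a cell can carry both. With all artery cells the level was 2.82-fold that of gCap in control and 4.59-fold in metastatic. Without cells that carried 2 or more markers of another cell type, the log2 ratio to gCap was 0.58 in control and -1.63 in metastatic, and no factor then differed 2-fold in arteries.

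**Figure D2:**
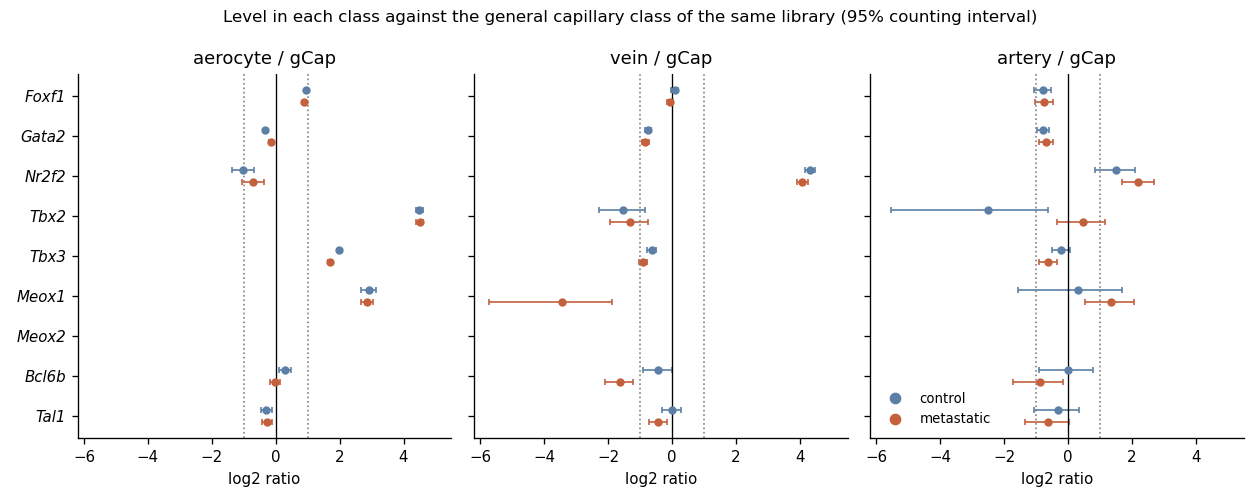
Log2 ratio of the level in aerocytes (left), veins (middle) and arteries (right) to the level in gCap of the same library, control in blue and metastatic in orange, with 95% counting intervals and dotted lines at 2-fold. Tbx2 (4.49 and 4.51) leads in aerocytes and Nr2f2 (4.33 and 4.08) in veins, Meox2 had too few UMIs to be drawn, and Meox1 in control veins had no UMI.

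Gata2, Tal1 and Bcl6b were not past 2-fold from gCap in both libraries in any class. Gata2 was highest in gCap, at 711 CPM (702 to 721) in control and 536 CPM (528 to 544) in metastatic. Aerocytes followed at 567 and 484 CPM, then veins at 420 and 302 CPM and arteries at 414 and 334 CPM, and veins and arteries could not be ordered beyond their intervals. In lymphatic-like cells 0 and 2 Gata2 UMIs were found, while platelet-like barcodes, whose megakaryocyte lineage is known to use GATA2, had 286 and 199 CPM from 14 and 13 UMIs. Tal1 lay between 36.0 and 55.2 CPM in all 8 class and library values. Aerocytes differed from gCap by -0.29 (-0.45 to -0.13) in control and -0.28 (-0.44 to -0.12) in metastatic on the log2 scale, and veins by -0.44 (-0.73 to -0.16) in metastatic, where the control ratio had an interval that included 0. Its largest difference from gCap, in metastatic arteries, rested on 19 UMIs and had an interval that included 0. Bcl6b was 26.4 CPM (24.7 to 28.2) in control gCap and 52.1 CPM in metastatic gCap, and 32.3 and 51.7 CPM in aerocytes. In veins it was 19.6 and 16.9 CPM and in arteries 26.4 and 28.4 CPM. Veins thus differed from gCap by -0.43 (-0.90 to 0.0044) in control and -1.63 (-2.08 to -1.20) in metastatic, and arteries differed by -0.87 (-1.71 to -0.15) in metastatic alone, from 15 UMIs. It had 0 UMIs in the lymphocyte-like cells of both libraries.

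More than 1 of the factors was often seen in a single cell. After thinning to 2000 UMIs, at least 1 of the 9 factors was seen in 92.9% of control and 90.5% of metastatic gCap cells and in 98.8% and 98.0% of aerocytes. At least 2 of them were seen in 61.7% and 59.9% of gCap cells and in 90.0% and 89.4% of aerocytes, with as many as 7 in an aerocyte. Of the lymphocyte-like cells 3 of 43 and 3 of 44 had any, and none had 2. Their rule allowed no UMI of Cdh5 or Cldn5, so a low share was partly built in. No share was taken for other genes of like level, so these shares describe the factors only.

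To see how the factors differed 6 h after melanoma cell injection, the metastatic library was set against the control library within each class, and a gene counted as different past 1.5-fold in either direction among genes with at least 100 UMIs over both libraries. In gCap 2 of the 8 factors with enough UMIs passed, Bcl6b and Meox1, both higher in the metastatic library, where 5.11% of 11252 genes did so in either direction. In aerocytes the same 2 of 8 passed, both higher, against 3.66% of 9290 genes. In veins none of 5 passed, against 5.29%, and in arteries none of 3, against 8.42%. Bcl6b and Meox1 had too few UMIs to be among these 5 and 3, so their differences could not be judged there. The median log2 ratio of the tested factors was 0.15 in gCap and 0.12 in aerocytes, beside 0.02 and 0.02 over all genes tested there. Over the fewer factors tested, it was -0.27 in veins and -0.14 in arteries, beside 0.0067 and -0.0051 over all genes tested there.

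**Figure D3:**
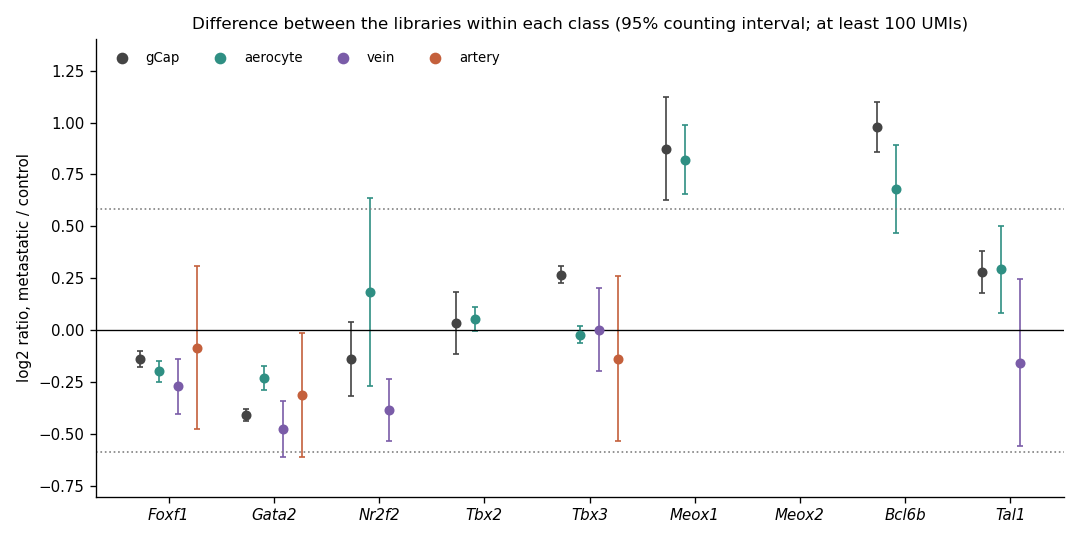
Log2 ratio of the metastatic to the control level for each factor within gCap, aerocyte, vein and artery cells, drawn where at least 100 UMIs were counted, with 95% counting intervals and dotted lines at 1.5-fold. Bcl6b and Meox1 lie above the upper line in gCap (0.98 and 0.87) and aerocytes (0.68 and 0.82), and Gata2 lies below 0 in all 4 classes as plotted, though its artery ratio came to 0.02 after thinning.

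Bcl6b had the largest ratio between the libraries of the factors tested in gCap. It was 26.4 CPM (871 UMIs) in control and 52.1 CPM (1625 UMIs) in metastatic gCap, a log2 ratio of 0.98 (0.86 to 1.10) that lay at the 99.1 percentile of all genes tested in that class. In aerocytes it was 32.3 and 51.7 CPM, a log2 ratio of 0.68 (0.47 to 0.89) at the 98.4 percentile. Thinned to 2000 UMIs, the share of cells with a Bcl6b UMI was 5.12% and 8.72% in gCap and 5.88% and 9.84% in aerocytes (unthinned 13.7% and 23.0%, 21.3% and 28.8%). In veins Bcl6b did not share this difference, at 19.6 CPM (14.2 to 26.3) in control and 16.9 CPM (12.3 to 22.5) in metastatic, from 44 and 46 UMIs. Among aerocytes with all 3 markers the ratio was 0.40, under the 1.5-fold limit.

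Meox1 was higher in the metastatic library in both capillary classes. The log2 ratio was 0.87 (0.63 to 1.12) in gCap, from 214 control and 371 metastatic UMIs, and 0.82 (0.66 to 0.99) in aerocytes, from 504 and 721 UMIs. These ratios lay at the 98.7 and 99.1 percentiles. In gCap the UMIs came from 186 of 5135 control and 276 of 4633 metastatic cells, and no cell held more than 8 of them. In aerocytes the thinned share with a Meox1 UMI was 8.66% (7.14 to 10.4) in control and 15.3% (13.1 to 17.8) in metastatic.

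Gata2 was lower in the metastatic library in all 4 classes, though nowhere past 1.5-fold, and after thinning to 2000 UMIs the artery ratio came to 0.02 (-0.64 to 0.68). The log2 ratios were -0.41 (-0.44 to -0.38) in gCap, -0.23 (-0.29 to -0.17) in aerocytes, -0.47 (-0.61 to -0.34) in veins and -0.31 (-0.61 to -0.01) in arteries. In gCap and veins this placed Gata2 at the 3.95 and 3.94 percentiles of the genes tested, and in aerocytes and arteries at the 9.35 and 14.3 percentiles. Foxf1 was lower as well, with ratios of -0.14 in gCap, -0.20 in aerocytes and -0.27 in veins. These lay at the 17.1, 11.7 and 14.1 percentiles, and thinning to 2000 UMIs brought the vein ratio to -0.082. The Foxf1 artery ratio of -0.08 had an interval that included 0. Nr2f2 was lower in veins, its main class, at -0.38 (-0.53 to -0.24), but at -0.021 (-0.35 to 0.31) once cells were thinned to 2000 UMIs. Tal1 was higher in gCap at 0.28 (0.18 to 0.38) and in aerocytes at 0.29 (0.09 to 0.50), where thinning left 0.075 (-0.39 to 0.53). Tbx3 was higher in gCap at 0.27 (0.23 to 0.31) and was -0.020 in aerocytes with an interval that included 0, and Tbx2 was 0.04 in gCap and 0.06 in aerocytes with intervals that included 0. The gCap ratios of Tal1 and Tbx3 lay at the 87.3 and 86.4 percentiles. With 1 library per group, none of the ratios in this paragraph can be told apart from variation between libraries.

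RNA of other cells also differed between the libraries. The 4 platelet markers Pf4, Ppbp, Gp9 and Itga2b, all detected, summed to 174 CPM in control and 271 CPM in metastatic gCap, and to 71.5 and 162 CPM in aerocytes. The 3 red cell markers summed to 1361 and 583 CPM in gCap and 1119 and 651 CPM in aerocytes. Cells with 2 or more platelet markers were 344 of 5135 control and 490 of 4633 metastatic gCap cells. They held 57 of 871 control and 194 of 1625 metastatic Bcl6b UMIs in gCap, and 3 of 214 and 37 of 371 Meox1 UMIs. Without all cells that carried 2 or more markers of another type, the gCap log2 ratios were 0.97 for Bcl6b, 0.81 for Meox1 and -0.42 for Gata2, and in aerocytes 0.70, 0.89 and -0.23. Without the shared barcodes they were 0.98, 0.88 and -0.41 in gCap.

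gCap cells were then split by Inhbb, which encodes an activin subunit and was used as a marker of reactive capillary cells. An Inhbb UMI was present in 121 of 5135 control and 344 of 4633 metastatic gCap cells. Among these cells Bcl6b was 47.1 CPM (34.4 to 63.1) in control and 140.1 CPM (126.6 to 154.6) in metastatic, against 25.8 and 43.3 CPM in gCap cells without an Inhbb UMI. Cells with an Inhbb UMI thus exceeded the others by 0.87 (0.40 to 1.30) in control and 1.69 (1.53 to 1.86) in metastatic on the log2 scale. The middle 95% of genes with at least 100 UMIs spanned -1.31 to 0.97 in control, which includes the control value, and -1.09 to 1.08 in metastatic, which does not include the metastatic value. Meox1 followed the same order, at 15.7 and 35.0 CPM with an Inhbb UMI and 6.2 and 9.6 CPM without. Its log2 ratios were 1.34 (0.47 to 2.09) in control, from 15 UMIs with Inhbb, and 1.87 (1.52 to 2.21) in metastatic. Both lay above the middle 95% of genes, though the control interval reached into it. Tal1 did not follow this order, at 42.9 and 52.0 CPM with an Inhbb UMI and 45.5 and 55.5 CPM without. Nr2f2 differed from the others by 0.21 (-0.53 to 0.87) in control and by -0.95 (-1.61 to -0.36) in metastatic cells, the latter from 24 UMIs.

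Gata2 and Tbx3 were lower in cells with an Inhbb UMI in both libraries, by log2 ratios inside the middle 95% of genes given above. The ratios were -0.23 in control and -0.27 in metastatic for Gata2, and -0.40 and -0.48 for Tbx3. Gata2 stood at 611 and 451 CPM with and 714 and 544 CPM without, and Tbx3 at 199 and 231 CPM with and 263 and 322 CPM without. Cells without an Inhbb UMI still differed between the libraries, by 0.75 (0.62 to 0.88) for Bcl6b, 0.62 (0.36 to 0.90) for Meox1 and -0.39 (-0.42 to -0.36) for Gata2. The middle 95% of genes with at least 100 UMIs spanned -0.50 to 0.63 there, which included the Meox1 and Gata2 values but not that of Bcl6b. Cells without an Inhbb UMI can include reactive cells in which no Inhbb RNA was counted. Median depth was 6910 and 7293.5 UMIs in cells with an Inhbb UMI and 5952 and 6219 UMIs in cells without, and the part of depth was not tested. Split by interferon genes, the 8 factors other than Meox2 differed by between -0.60 and 0.02 on the log2 scale in either library. Bcl6b was 26.3 and 47.0 CPM in the 642 and 731 gCap cells with 3 or more of Ifit1, Ifit3, Isg15, Irf7, Rsad2 and Usp18, and 26.4 and 53.2 CPM in the others.

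**Figure D4:**
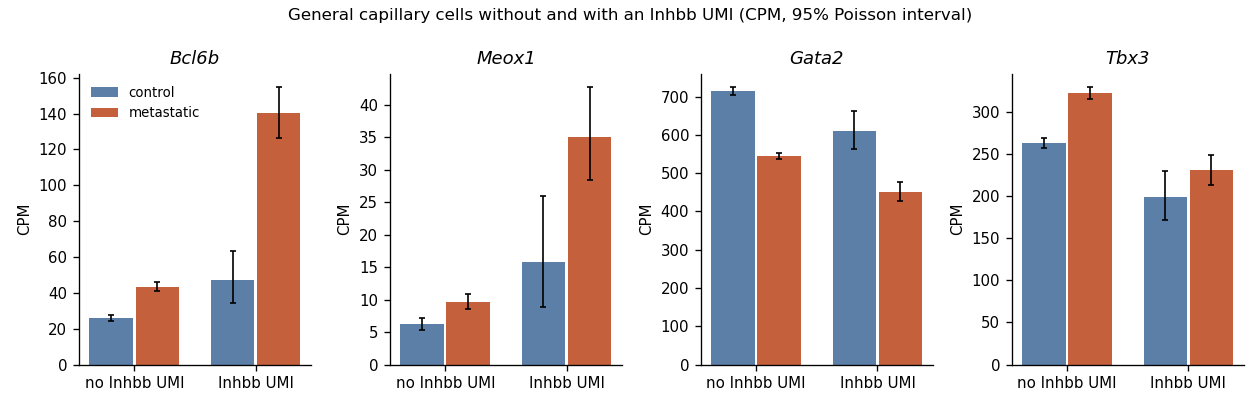
Level of Bcl6b, Meox1, Gata2 and Tbx3 in CPM (linear axes from 0) in gCap cells without and with an Inhbb UMI, control in blue and metastatic in orange, with 95% Poisson intervals. Bcl6b reaches 140.1 CPM in metastatic cells with an Inhbb UMI against 43.3 CPM without. Gata2 and Tbx3 are lower with an Inhbb UMI in both libraries, inside the middle 95% of genes.

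Proteins that work with the factors were compared next. Of 11 listed partners, 9 had enough UMIs in gCap and none passed 1.5-fold. Lmo2, the bridge between GATA2 and TAL1, was higher in the metastatic library by 0.36 in gCap, 0.35 in aerocytes and 0.49 in veins, and it was the 1 of 4 partners past 1.5-fold in arteries (36 and 106 UMIs), against 8.42% of all genes tested there. Zfpm1, which encodes the GATA cofactor FOG1, was higher by 0.42 in gCap and 0.38 in aerocytes, and Tcf15, known as a partner of MEOX2, by 0.49 in gCap from 96 and 128 UMIs. In veins 1 of 8 partners passed, against 5.29% of all genes tested. This was Runx1, with 7 control and 105 metastatic UMIs, which came from 10 cells, 39 of them from 1 cell. Markers of myeloid cells, which are known to express Runx1, stood at 6.2 and 62.7 CPM in the same veins and the leukocyte gene Ptprc at 3.1 and 25.3 CPM, and their part in the Runx1 ratio was not tested. Against gCap, Runx1 and Tcf15 were at least 2-fold lower in aerocytes in both libraries, 2 of 9 partners tested, against 5.15% of all genes.

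Relatives of the factors gave a different picture by class than between libraries. Of 15 listed relatives 8 were tested in gCap and none passed 1.5-fold, though Lyl1, a close relative of Tal1, was higher by 0.57 (0.33 to 0.81) and Bcl6, the relative of Bcl6b, by 0.52 (0.28 to 0.76). In aerocytes 1 of 4 passed, Bcl6, with a ratio of -0.60 (77 and 41 UMIs), against 3.66% of all genes tested. Gata3 and Gata6 were at least 2-fold lower in aerocytes than in gCap in both libraries (-1.68 and -1.52, -1.74 and -1.50). They were 2 of 7 relatives tested there, against 5.15% of all genes. Gata6 was highest in arteries, at 219 and 256 CPM against 26.9 and 32.0 CPM in gCap. Gata3 was 103 and 118 CPM in veins against 48.4 and 62.8 CPM in gCap.

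Genes that have been linked to the factors were given by class too. Kdr (VEGF receptor 2) and Nrp1 were higher in aerocytes by 2.38 and 1.82 in control and 1.91 and 1.39 in metastatic, the 2 of 16 linked genes at least 2-fold higher there (background 3.6%), and 8 of the 16 were at least 2-fold lower (background 5.15%). Nrp2, a receptor of veins and lymphatics tied to Nr2f2, exceeded its gCap level in veins by 4.03 and 4.09, and Vwf by 4.17 and 4.30. The Notch target Hey1 had ratios of -2.09 and -1.95. In veins 2 of the 16 were at least 2-fold higher (background 2.74%) and 1 was lower (background 2.69%). Between libraries, Kdr was higher in gCap by 0.69 (0.65 to 0.74), the 1 of 16 past 1.5-fold there, against 5.11% of all genes. In aerocytes Angpt2 (0.69, 55 and 72 UMIs) was the 1 of 15 tested that was past 1.5-fold higher. In veins Angpt2 (0.66) and Fabp4 (0.68) were the 2 of 16 past 1.5-fold higher. In arteries 2 of 13 were, with ratios up to 4.15. The 4 lymphatic markers summed to 2.0 CPM in control and 1365 CPM in metastatic arteries, and their part in these ratios was not tested. Fabp4 was uneven over cells: in control gCap, 835 of its 2967 UMIs came from 1 cell. Cdkn1a, a cell cycle inhibitor linked to MEOX2, had ratios of -0.57 in gCap, -0.60 in aerocytes, -0.65 in veins and -0.62 in arteries. It was past 1.5-fold in all but gCap, the 1 linked gene that far lower in each of these classes. Over all genes tested, 3.66% in aerocytes, 5.29% in veins and 8.42% in arteries were past 1.5-fold either way. S1pr1, linked to Foxf1, had ratios of -0.091 in gCap, -0.30 in aerocytes, -0.51 in veins and -0.31 in arteries.

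Among 16 other endothelial factors, none of the 14 tested in gCap, the 13 in aerocytes, the 14 in veins or the 11 in arteries passed 1.5-fold. Sox17, an arterial SOX factor, was higher in the metastatic library by 0.42 in gCap and 0.48 in aerocytes, and Mecom by 0.40 in gCap. By class, Foxc1 was the 1 gene of this list at least 2-fold higher in veins in both libraries, with 87.2 and 78.8 CPM in veins against 0.76 and 0.74 CPM in gCap, an excess of 6.85 (6.24 to 7.51) and 6.74 (6.12 to 7.43). It was 1 of 14 tested in veins, against 2.74% of all genes. Mecom led in arteries, by 3.05 and 2.81, the 1 of 13 at least 2-fold higher there (background 2.39%). Mecom was lower in aerocytes, as were Sox17, Hey1, Foxo1 and Foxp1. There 5 of 13 were at least 2-fold lower in both libraries, against 5.15% of all genes.

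The genes most alike to each factor over the 8 class and library values were picked by Pearson r on log2(CPM + 1) among 4739 candidates with at least 300 UMIs and a range of at least 1. These values come from 2 libraries and share depth, so the correlations are descriptions. Tbx2 was followed most closely by Itgb5 (r = 0.99), Abi1 and Lmna. Nr2f2 was followed by Net1 (r = 0.995), Tcf7l1 and Ptgis, and Tbx3 by Csk (r = 0.997), Ap2a2 and Nhlrc2. Meox1 was nearest to Rgl1, Rai2 and Eva1b, and Foxf1 to B130011K05Rik, Cd47 and Edil3 (all r of 0.98 or 0.99). Bcl6b was nearest to Taf4b (r = 0.95), Il4ra, the receptor chain for interleukin 4, and Rell1. For Gata2 they were Ccdc85a, Mtmr10 and Sash1, and for Tal1 Prr7, Tubb6 and H2-Q7.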

How the data were processed

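Lung ECs were profiled with 10x Genomics 3' reagents. The authors deposited counts, whole UMIs per gene and barcode, unfiltered and not normalized. The submitters' processing notes name Cell Ranger, Seurat and mm10, and the matrix headers name software version 3.1.0. The libraries held 67929614 (control) and 64733724 (metastatic) UMIs. The factors and gene lists were chosen with earlier results of these data known. UMIs were summed over the cells of each class and scaled to CPM with Python 3.11.15, numpy 2.4.6 and scipy 1.17.1. Exact Poisson intervals were given for levels, exact conditional binomial intervals for ratios and exact Clopper-Pearson intervals for shares, all 95%. These calculations were tested on simulated data. Doublets were kept, and an alternative removed the highest scores (407 and 334 barcodes). Lymphocyte-like and other barcodes needed 2 or more markers of their list, no endothelial class and, except for lymphatic-like cells, no UMI of Cdh5 or Cldn5. Cells are not replicates, so no test was run. Named genes were the 9 factors, up to 6 genes per list with the largest ratios, other members being given for contrast after their values were seen, and the 3 most alike genes per factor. Fendrr, the neighbor of Foxf1, was not analysed here.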

Additional observations from a re-analysis of the deposited data

Results flagged for a closer look

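For 3 factors the ratio between the libraries had opposite signs in 2 classes, with counting intervals that did not overlap. For each of them the interval in 1 class included 0, so changes in opposite directions were not shown. The difference itself was not tested, since each group had 1 library. For Bcl6b the log2 ratio of metastatic to control was 0.98 in gCap and 0.68 in aerocytes and -0.21 (-0.84 to 0.42) in veins. For Tbx3 it was 0.27 in gCap and -0.020 (-0.062 to 0.021) in aerocytes, where it came to 0.0041 with doublets left out. For Nr2f2 it was -0.38 in veins and 0.57 (-0.21 to 1.37) in arteries, where 5 and 7 cells held all its UMIs.

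In barcodes with 1 to 100 UMIs, Bcl6b was 26.3 CPM (22.0 to 31.1) in metastatic and 17.2 CPM (14.0 to 20.9) in control. Of these barcodes, only those with 11 to 50 UMIs entered a comparison above. In that window Bcl6b went the other way, at 18.28 CPM in control (12 UMIs) and 10.98 CPM in metastatic (8 UMIs). The intervals there overlapped (9.44 to 31.93 and 4.74 to 21.64 CPM), so its direction in that window was not settled.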

How the results depend on the processing

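Settings varied were the gene and mitochondrial limits, the class rules, doublets, other-type cells, shared barcodes, TMM scaling and thinning to 2000 UMIs. Counts of factors stayed within 1.5 times in 71 cases and moved further in 6, and 2 ratios past 2-fold in the main setting changed direction. Counting smaller ratios too, 17 of 71 had the other sign in 1 or more settings. With all 3 markers required, 1 factor passed 1.5-fold in aerocytes (2 in the main setting) and 2 passed 2-fold in arteries (1 in the main setting). With cells of several classes counted in each, 1 factor, with under 100 UMIs in the main setting, passed 1.5-fold in veins (0 in the main setting), 1 passed 2-fold in veins against gCap (3 in the main setting), and Tbx2 in control veins turned to 0.77 above gCap. In arteries 0 factors passed with other-type cells left out, where metastatic Nr2f2 turned to -1.63, and 0 after thinning. The cause was not tested. In gCap and aerocytes the log2 ratio of metastatic to control stayed between 0.40 and 0.98 for Bcl6b, 0.77 and 1.03 for Meox1 and -0.43 and -0.19 for Gata2, while thinning to 2000 UMIs brought Tal1 in aerocytes to 0.075, Nr2f2 in veins to -0.021 and Gata2 in arteries to 0.023. TMM scaling moved the ratios between libraries by at most 0.066. Counting genes with at least 1 UMI, 29.3% of genes in gCap and 46.6% in arteries were past 1.5-fold between libraries. Subtraction of free RNA was not run, because the share implied by barcodes with 11 to 50 UMIs was 10.2% to 181%, over 100% in 3 of 8 cases. No paired analysis was possible because each group had 1 library. Meox2 was limited by its few UMIs and the artery class by its 63 and 62 cells.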
